A study of Homo sapiens with 30 samples.

Results

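The MR49F prostate cancer cell line was compared between hormone-depleted and complete growth medium with no drug or ligand added. The members were the 6 libraries of vehicle-treated MR49F, 3 from charcoal-stripped serum and 3 from full serum, out of 30 libraries in 10 groups. They were chosen by cell line and treatment as the labels give them. Poly(A) RNA was measured in MR49F cells and in their parental line V16D, in a pair of RNA-seq experiments that addressed how resistant cells respond to enzalutamide, an antiandrogen drug, with and without androgen in the medium. The full serum experiment held 12 libraries of MR49F and V16D with vehicle or enzalutamide. The stripped serum experiment held 18 libraries of MR49F with vehicle, dihydrotestosterone (DHT), enzalutamide, the bromodomain inhibitor JQ1 or a combination. The 3 stripped serum libraries with 1 nM DHT were set beside the comparison, because they show the same cells in the same medium with the androgen restored.

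MR49F is an established line descended from LNCaP, with enzalutamide resistance that was selected in xenografts. It is a single line, and the replicates were plated in triplicate from it, with wells combined for each, so they are not independent tumours. In full serum, 300000 cells per well were plated in 10% fetal bovine serum and received 0.1% DMSO for 24 h, after 96 h of culture without enzalutamide. In stripped serum, 200000 cells per well were plated after the same drug-free culture, spent 72 h in medium with 10% serum treated with charcoal, and were then given 0.1% DMSO and 0.1% ethanol in that medium for 24 h. The cells had therefore been on the plate for 48 h in full serum and for 120 h in stripped serum, and without enzalutamide for 120 h and 192 h. Serum, plating density, ethanol, time on the plate and time without drug all differed together with the experiment and its libraries, so serum and experiment cannot be told apart in any comparison of stripped with full serum. Only the comparison of DHT with vehicle in stripped serum lies within 1 experiment.

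Charcoal treatment removes small lipophilic molecules from serum, above all steroid hormones, and leaves most proteins in place. In prostate cells, testosterone and DHT switch on secretory genes such as KLK3, which encodes prostate-specific antigen, and repress other genes. LNCaP-derived cells depend on androgen for growth, and their withdrawal from serum steroids is a standard way to lower androgen action in culture.

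Levels are given in FPKM, fragments scaled for transcript length and for the number of mapped fragments, summed over the transcripts of a gene symbol. Differences are on the log2(FPKM + 1) scale, stripped minus full serum unless another order is named, and such differences understate the change of low genes. The deposited gene counts were not compared between the experiments, since 76.1% to 77.8% of the reads that the counter classified lay on genes in full serum, against 5.31% to 6.54% in stripped serum (13170504 to 18194061 against 1221104 to 1643261 reads on genes). A second feature of the full serum libraries was MIR4461, a microRNA symbol listed at 158550 to 315110 FPKM there and at 0 in stripped serum. Scaling each library to its total FPKM therefore moved the median of all genes by 0.75, to 0.72. Counts of list genes called higher after it lean with that shift of all genes. Values after that scaling are given beside the list medians and the differences of named genes that it turned in stripped against full serum. Named genes that lost their call with it but kept their sign are listed in the closing section. With DHT in stripped serum against full serum the same scaling moved the median by 0.74, so small negative differences of that comparison can turn positive with it. Most genes agreed closely within a group, with a median SD of 0.09 in full serum and 0.06 in stripped serum.

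More genes were clearly lower in stripped serum than higher. Of 12665 genes with at least 1 FPKM in at least 3 libraries, limma on log2(FPKM + 1) called 9281, or 73.3%, at an adjusted p of 0.05 or less. Asking also for a 2-fold difference left 1114 genes lower (8.8% of those tested) and 598 higher (4.72%). The median difference over all genes was -0.03, with the middle 50% of them between -0.44 and 0.34. Of the genes past 2-fold, 65.1% were lower in stripped serum, against 51.9% after quantile normalization and 12.1% after scaling to total FPKM. For a gene called here, serum and experiment cannot be told apart. The 18 stripped serum libraries lay wholly on one side of the 12 full serum libraries, whatever the cell line or treatment, for 748 of the 1114 lower genes (67.1%) and 19.4% of the 598 higher genes. These genes are named below as standing apart by experiment, a label that holds equally for serum and decides nothing between the 2.

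Genes that androgen activates formed the clearest group. The androgen-induced list held 30 genes, 29 of which passed the filter, and 27 were lower in stripped serum while 39.2% of all genes were. At least 2-fold lower were 26, and the median of the 29 was -2.23 beside -0.03 for all genes. The exceptions were CAMKK2, a calcium-dependent kinase, which fell by only 0.30 (higher by 0.49 after scaling to total FPKM), NDRG1, a stress and differentiation gene, at -0.11 and not called (adjusted p = 0.0696, and called higher by 0.68 after scaling to total FPKM), and MED28, a Mediator subunit, which was higher by 0.57. STEAP4, a metalloreductase, was under the filter, at 0.456, 0.753 and 0.609 FPKM in full serum and 0, 0 and 0.0224 in stripped serum. None of the 29 stood apart by experiment, since libraries with DHT or enzalutamide in stripped serum reached into the full serum range. The summed level of the 30 genes was 2876 to 2953 FPKM in full serum, 669 to 690 in stripped serum and 4460 to 4651 with DHT. After scaling to total FPKM, 25 of the 29 were lower in stripped serum with vehicle, 18 of them at least 2-fold, and 3 were higher. Their median was then -1.45 beside 0.72 for all genes.

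FKBP5, a co-chaperone of steroid receptors that is among the most androgen-sensitive genes, had the largest difference of the list. It measured 218, 207 and 201 FPKM in full serum and 9.21, 9.14 and 10.2 in stripped serum, a difference of -4.32 ± 0.06 (SE, n = 3 per group, limma adjusted p = 1.33e-08). With DHT in stripped serum it reached 400, 405 and 421 FPKM, above every full serum library. The secreted proteases of the kallikrein locus on chromosome 19 moved less. KLK3 measured 993, 974 and 945 FPKM in full serum and 277, 282 and 289 in stripped serum, so it stayed one of the more abundant transcripts without added androgen (difference -1.78 ± 0.05, limma adjusted p = 2.86e-07). With DHT it measured 1212, 1235 and 1327 FPKM. Its neighbour KLK2 went from 135, 148 and 147 to 28.9, 29.6 and 30.1 FPKM (difference -2.24), and measured 214, 213 and 230 with DHT. KLK4, the member expressed inside the cell, differed by -1.04 only. In GRCh37 these genes lie at chr19:51358171-51364020 for KLK3 and chr19:51364824-51383823 for KLK2.

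The region just upstream of KLK3 holds the hexamer AGAACA, a half-site of steroid response elements. It is shown because KLK3 is the textbook androgen-induced gene, was at least 2-fold lower in stripped serum and has this hexamer within 250 bases upstream. The sequence is from RefSeq on GRCh38.p14, chr19:50854665-50854914, plus strand, 250 bases 5′ to 3′ ending at the base before the start of transcription, with the match in capitals.
KLK3: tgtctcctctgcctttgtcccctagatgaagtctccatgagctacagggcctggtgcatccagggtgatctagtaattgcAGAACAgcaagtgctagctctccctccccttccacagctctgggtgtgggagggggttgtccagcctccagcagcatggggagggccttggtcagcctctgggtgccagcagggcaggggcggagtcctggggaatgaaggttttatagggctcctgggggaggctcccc
The match starts 170 bases before the start of transcription. On either strand the hexamer was present for 3 of the 21 matched genes, or 14.3%, against 14.8% of all 27305 genes in the table, so proximal half-sites were no more frequent among these genes than elsewhere.

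Other members show how far the levels reached. TMPRSS2, a membrane serine protease whose promoter drives oncogenic fusions in prostate cancer, measured 119, 118 and 117 FPKM in full serum and 22.4, 24.4 and 23.1 in stripped serum (difference -2.29 ± 0.05). ABCC4, an efflux pump, went from 30.6, 32.9 and 33.6 to 1.94, 2.22 and 2.001 FPKM (difference -3.45 ± 0.06). PMEPA1, an inhibitor of TGF-beta signalling, went from 195, 194 and 189 to 18.3, 19.9 and 18.8 FPKM (difference -3.28 ± 0.05). In all 3 genes the lowest full serum library was more than 4 times the highest stripped serum library. Only FKBP5 and ADAM7, a membrane protein first known from the epididymis (-3.79), differed more than ABCC4 among the 29.

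DHT raised 29 of the 30 genes above vehicle within the stripped serum experiment (28.9% of all genes tested were higher), 28 of them at least 2-fold, and lowered only MED28 (43.2% of all genes were lower). Set against full serum, the DHT libraries were higher for 22 of the 30 and lower for 2, with a median of 0.58 beside -0.11 for all genes, where 18.2% and 40.4% of genes were called higher and lower. The 8 genes at least 2-fold above their full serum level were NDRG1 (3.09), STEAP4 (2.63), the kinase SGK1 (2.18), CAMKK2 (1.42), the small GTPase RHOU (1.30), the sorbitol dehydrogenase SORD (1.22), the glycine methyltransferase GNMT (1.12) and the prostate transporter SLC45A3 (1.03). The 2 genes still lower with DHT were ADAM7 at -1.98 and the cold-sensing channel TRPM8 at -0.67, of which TRPM8 was not called after scaling to total FPKM (-0.045, limma adjusted p = 0.654). The plot of the androgen-induced genes by library shows these 3 levels side by side. These comparisons share libraries, so the order of the 3 groups is a description.

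**Figure D1:**
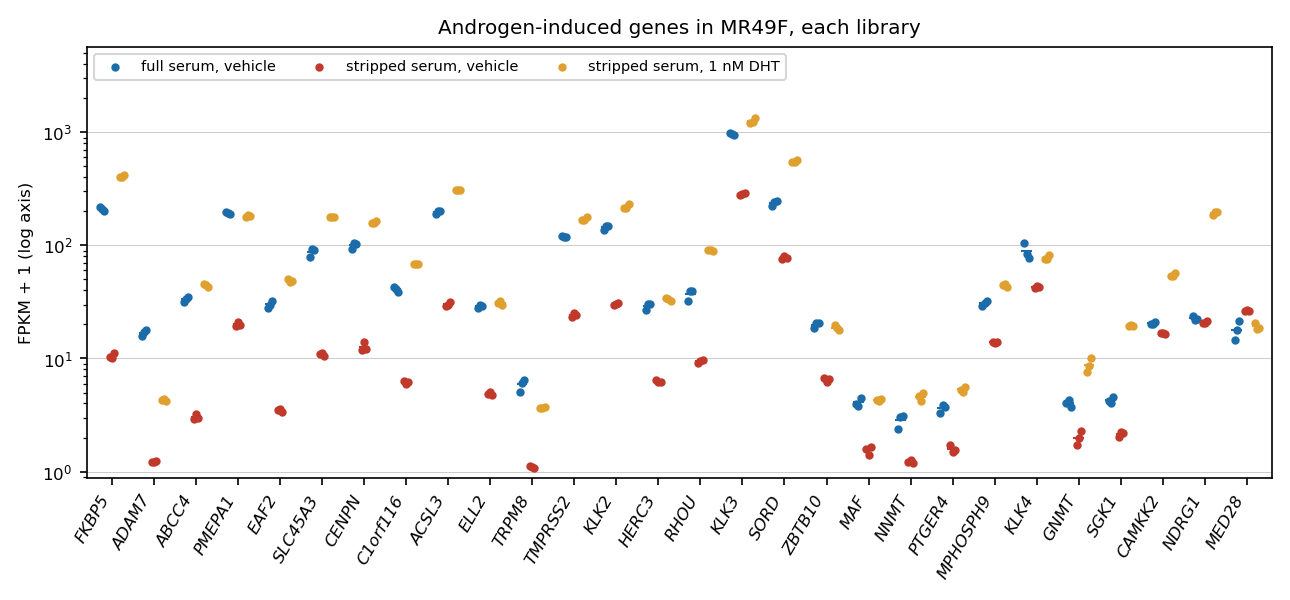
FPKM + 1 on a log axis for 28 of the 29 androgen-induced genes tested, ordered by the difference between stripped and full serum; points are the 3 libraries of each group and bars the mean. FKBP5 at the left sits at 201 to 218 FPKM in full serum, 9.14 to 10.2 in stripped serum and 400 to 421 with DHT, while NDRG1 near the right end separates only with DHT.

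Most tested genes on the androgen-repressed list moved the other way. Of the 15 genes on the androgen-repressed list 8 passed the filter, and 7 of these were higher in stripped serum (34.1% of all genes were), with a median of 2.1045. At least 2-fold higher were 5: CAMK2N1, an inhibitor of calcium/calmodulin-dependent kinase II, DDC, the decarboxylase that makes dopamine and serotonin, NOV, a matricellular growth regulator, OPRK1, the kappa opioid receptor, and UGT2B17, which glucuronidates and inactivates androgens. CAMK2N1 measured 12.4, 9.62 and 9.81 FPKM in full serum, 178, 184 and 168 in stripped serum and 16.8, 17.1 and 17.3 with DHT (stripped minus full 3.94 ± 0.09, limma adjusted p = 1.06e-07). DDC measured 18.8, 20.7 and 20.6 FPKM in full serum, 147, 156 and 162 in stripped serum and 25.6, 25.6 and 25 with DHT. Both genes thus lay within a factor of 2 of their full serum level once DHT was present, on the mean of 3 libraries. The count of 5 rests on low genes, since leaving out any one of the stripped serum libraries left OPRK1, NOV and UGT2B17 under the filter and the count at 2. PEG10, a retrotransposon-derived gene, went against the list, at 15.2, 16.3 and 15.7 FPKM in full serum and 7.74, 7.08 and 7.58 in stripped serum (difference -0.98). After scaling to total FPKM PEG10 was not called (-0.24), and 7 of the 8 genes were higher, with a median of 3.02. With DHT, PEG10 lay 0.82 above full serum. Within stripped serum 10 list genes were tested for DHT against vehicle. Of these, 7 were lower with DHT, 6 at least 2-fold, and 3 were higher, all 3 at least 2-fold. Of all genes 43.2% were lower and 28.9% higher there, so DHT did not repress every member in these cells.

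UGT2B17 was near the limit of what the libraries show, at 0.0987 to 0.145 FPKM in full serum and 1.76 to 2.13 in stripped serum. UGT2B11 and UGT2B28, near-identical relatives, were under the filter in both vehicle groups and reached 4.77 to 5.67 and 2.19 to 2.91 FPKM with DHT. Reads can be shared among the UGT2B genes, so the split between them is uncertain.

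The largest differences over all genes, members of the lists included, were taken from genes with a protein-coding transcript accession, at least 5 FPKM in the higher group and no overlap between the groups. CAMK2N1 was among the 12 highest. PLA2G2A, a secreted phospholipase, measured 3.57, 3.11 and 3.78 FPKM in full serum and 112, 121 and 121 in stripped serum (difference 4.73 ± 0.07, limma adjusted p = 1.84e-08), and was the only one of the 12 that stood apart by experiment, with 31.6, 37.4 and 35.6 FPKM under DHT. SERPINI1, a neuronal protease inhibitor, measured 6.61, 6.76 and 7.69 FPKM in full serum, 122, 125 and 126 in stripped serum and 11.6, 10.0 and 9.97 with DHT. ACPP, prostatic acid phosphatase, measured 15.7, 14.2 and 14.8 FPKM in full serum, 209, 207 and 210 in stripped serum and 44.6, 47.5 and 49.5 with DHT. Each of these 3 genes was over 13 times as abundant in stripped as in full serum on the mean.

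LRRN1, a leucine-rich membrane protein, MATN2, a matrix protein, CXCR7, a chemokine scavenger receptor, FAM198B, a Golgi protein, PKIB, an inhibitor of protein kinase A, and DOCK10, an exchange factor for small GTPases, differed by 3.15 to 3.74 in the same direction. With DHT, LRRN1 measured 1.07, 1.10 and 1.27 FPKM, below its 1.61, 1.66 and 1.64 in full serum. The difference of CXCR7 between DHT and full serum was -0.23 and was not called (limma adjusted p = 0.0776), nor was that of PKIB at -0.05 (adjusted p = 0.683). The last 2 of the 12 rest on uneven full serum libraries. RPL21, a ribosomal protein gene with many processed copies, was listed at 14.1, 44.8 and 0.0152 FPKM in full serum and at 214, 148 and 84.9 in stripped serum, and its call was lost without stripped serum replicate 1 (adjusted p = 0.0704) or replicate 2 (adjusted p = 0.0598). SLC9A7, an organellar sodium and proton exchanger, was listed at 9.33, 0 and 0 FPKM in full serum.

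**Figure D2:**
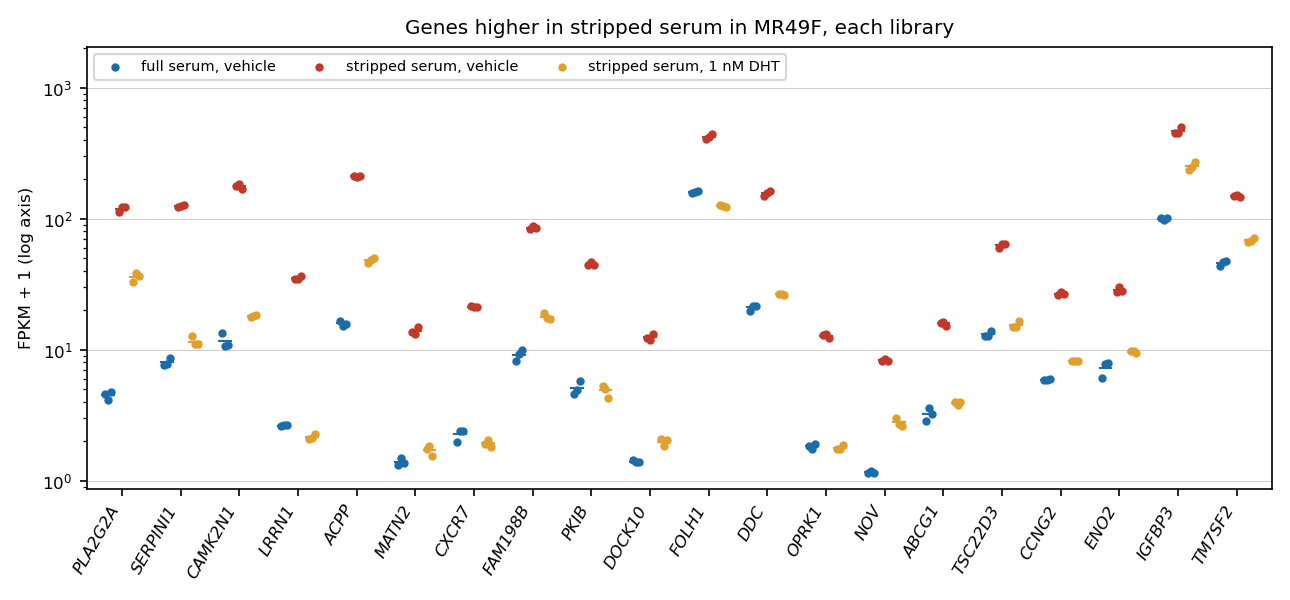
FPKM + 1 on a log axis for 20 genes that were higher in stripped serum; points are the 3 libraries of each group and bars the mean. ACPP sits at 14.2 to 15.7 FPKM in full serum, 207 to 210 in stripped serum and 44.6 to 49.5 with DHT, and apart from PLA2G2A and IGFBP3 the DHT mean of each gene lies nearer, on the log axis, to full serum than to stripped vehicle.

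Of the 12 lowest genes, 5 were higher with DHT than with vehicle in stripped serum and 7 stood apart by experiment. ST6GALNAC1, a sialyltransferase that makes the sialyl-Tn antigen, measured 77.2, 67.2 and 64.0 FPKM in full serum, 0.328, 0.307 and 0.323 in stripped serum and 40.9, 43.01 and 44.8 with DHT. This was a difference of -5.74 ± 0.07 between the vehicle groups, the largest among the 5. AZGP1, a secreted zinc-binding glycoprotein, measured 49.0, 39.3 and 38.1 FPKM in full serum, 3.02, 3.06 and 2.54 in stripped serum and 51.4, 53.8 and 55.2 with DHT. TARP, a T cell receptor gamma reading frame that prostate cells transcribe, measured 9.85, 11.3 and 9.77 FPKM in full serum, 0, 0 and 0.0514 in stripped serum and 5.11, 3.93 and 4.74 with DHT. FKBP5 and ADAM7 were the other genes of this kind.

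The 7 that stood apart were MTRNR2L1, MTRNR2L3, MTRNR2L4, UQCRHL, H3F3C, LOC649330 and TMEM212. The MTRNR2L genes are nuclear copies of a mitochondrial ribosomal RNA, UQCRHL and H3F3C are intronless copies of a respiratory chain subunit and of a histone H3.3 gene, and reads from the parent sequences can be assigned to any of them, so their values are uncertain. UQCRHL measured 124, 102 and 111 FPKM in the 3 full serum libraries and 0.354, 0.345 and 0.774 in the stripped serum libraries. Over all libraries it ranged from 89.7 to 124 FPKM in the 12 of full serum, V16D and enzalutamide included, and from 0 to 1.03 in the 18 of stripped serum. MTRNR2L1 ranged from 61.6 to 153 and from 0 to 0.257 FPKM in the same way. None of the 7 exceeded 1.03 FPKM in any stripped serum library, and none was under 11.6 FPKM in any full serum library.

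Among the 12665 genes, 105 were listed at 0 in all 3 stripped serum vehicle libraries, 24 of them with a protein-coding accession, and 3 were listed at 0 in all 3 full serum libraries. The most abundant of the 24 were MTRNR2L10 (205 to 225 FPKM in full serum), MTRNR2L6 (36.2 to 40.2), NACA2 (30.2 to 42.8) and RPL39L (28.4 to 37.5), all copies of other genes or members of the MTRNR2L family. No fold is given for them. Small RNA genes leaned the same way: 51 of 101 snoRNA symbols and 18 of 34 microRNA symbols were at least 2-fold lower in stripped serum (8.8% of all genes were), 47 and 18 of them listed at 0 there. The plot of 6 genes in all 30 libraries contrasts these symbols with FKBP5 and CAMK2N1.

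**Figure D3:**
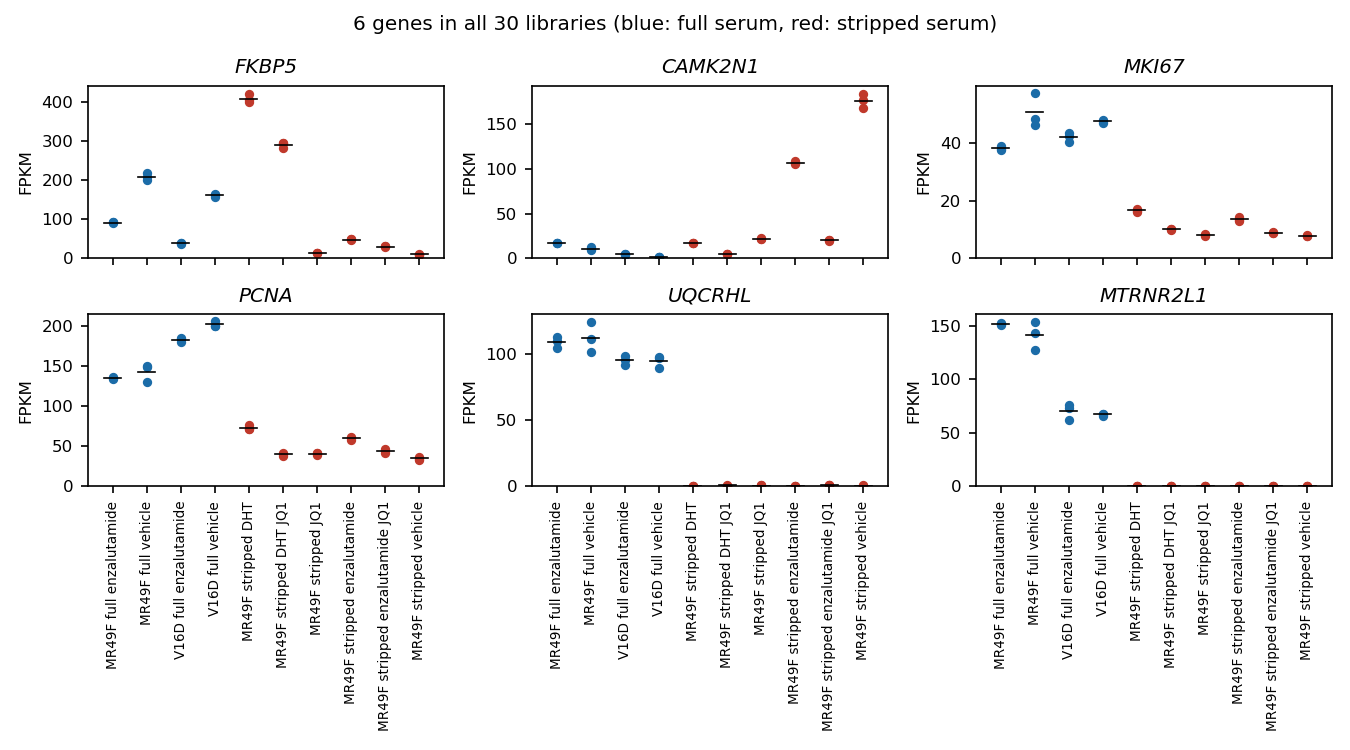
FPKM on linear axes for 6 genes in all 30 libraries, by group, with the 12 full serum libraries in blue and the 18 stripped serum libraries in red; points are libraries and bars group means. FKBP5 and CAMK2N1 change with treatment inside the red groups, MKI67 and PCNA change less and stay below every blue library, and UQCRHL and MTRNR2L1 stay at or below 1.03 FPKM in every red library.

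Cell cycle genes were lower in stripped serum throughout both lists used. In bulk RNA, fewer cycling cells and less of these transcripts per cell cannot be told apart. All 30 DNA replication genes passed the filter and were called lower, 28 of them at least 2-fold (8.8% of all genes were), with differences from -2.73 to -0.93 and a median of -1.88. All 30 mitosis genes were lower too, 29 at least 2-fold, with differences from -2.56 to -0.91 and a median of -1.67. The members under 2-fold were the ribonucleotide reductase subunit RRM1 (-0.99), the histone mRNA binding protein SLBP (-0.93) and the mitotic cyclin CCNB1 (-0.91). Scaling to total FPKM kept 29 called lower on each list, with medians of -1.17 and -0.94, and left 13 of the mitosis genes at least 2-fold lower. The summed level of the replication genes was 1073 to 1158 FPKM in full serum and 298 to 316 in stripped serum, and that of the mitosis genes 1135 to 1204 and 326 to 357.

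CDC45, a subunit of the replicative helicase, had the largest difference, from 23.0, 21.8 and 21.7 FPKM in full serum to 2.50, 2.62 and 2.37 in stripped serum (-2.73 ± 0.05, limma adjusted p = 6.78e-08). RRM2, the regulated subunit of ribonucleotide reductase, went from 62.1, 62.9 and 60.2 to 8.28, 9.75 and 8.84 FPKM (difference -2.66 ± 0.06). CDC6, which loads the helicase at origins, went from 36.1, 39.8 and 40.0 to 4.78, 5.86 and 5.46 FPKM (difference -2.64 ± 0.08). The helicase subunits MCM2 to MCM7 differed by -2.19 to -1.24, and MCM10, which activates the helicase, by -2.40. PCNA, the sliding clamp, measured 130, 148 and 149 FPKM in full serum and 33.1, 34.4 and 36.99 in stripped serum. E2F1, which drives many of these genes, differed by -1.89.

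Of the mitosis genes, MKI67, the proliferation marker Ki-67, went from 57.4, 48.5 and 46.2 FPKM to 7.65, 7.57 and 7.91 (difference -2.56 ± 0.08, limma adjusted p = 3.83e-07). AURKB, the kinase of the chromosomal passenger complex, went from 21.9, 26.8 and 26.7 to 3.88, 4.79 and 3.75 FPKM (difference -2.35 ± 0.11). HMMR, a spindle protein, differed by -2.07 and UBE2C, the ubiquitin-conjugating enzyme of the anaphase-promoting complex, by -2.03. CCNB1 showed the least separation, at 56.3, 76.3 and 84.1 FPKM in full serum and 35.9, 39.4 and 36.8 in stripped serum. FOXM1, an activator of mitotic genes, differed by -1.38.

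Promoters of 4 of these genes are shown because their sequences carry the elements by which the 2 lists are known to be switched with the cell cycle, the E2F site of replication genes and the cell cycle homology region (CHR) of mitotic genes. They are 2 of the first 3 members of each list with a match within 250 bases upstream, ranked by their difference and at least 2-fold lower in stripped serum. The E2F site was searched as TTTCCCGC, TTTGGCGC, TTTCGCGC or TTTGCCGC and the CHR as TTTGAA or TTCGAA, both on either strand. The sequences are from RefSeq on GRCh38.p14, 5′ to 3′ in the direction of transcription and ending at the base before the start, with the matches in capitals. CDC25A lies at chr3:48188418-48188667 on the minus strand, GINS2 at chr16:85688955-85689204 on the minus strand, MKI67 at chr10:128126424-128126673 on the minus strand and HMMR at chr5:163460382-163460631 on the plus strand.
CDC25A: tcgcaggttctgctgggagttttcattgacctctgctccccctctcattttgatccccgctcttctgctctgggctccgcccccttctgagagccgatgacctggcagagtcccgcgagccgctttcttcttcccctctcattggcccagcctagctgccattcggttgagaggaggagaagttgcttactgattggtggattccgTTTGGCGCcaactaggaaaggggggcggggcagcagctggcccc
GINS2: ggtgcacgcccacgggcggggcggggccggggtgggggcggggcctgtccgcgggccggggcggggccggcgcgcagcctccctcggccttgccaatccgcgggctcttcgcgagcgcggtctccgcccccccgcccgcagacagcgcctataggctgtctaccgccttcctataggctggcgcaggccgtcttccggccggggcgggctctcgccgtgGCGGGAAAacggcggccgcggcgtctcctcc
MKI67: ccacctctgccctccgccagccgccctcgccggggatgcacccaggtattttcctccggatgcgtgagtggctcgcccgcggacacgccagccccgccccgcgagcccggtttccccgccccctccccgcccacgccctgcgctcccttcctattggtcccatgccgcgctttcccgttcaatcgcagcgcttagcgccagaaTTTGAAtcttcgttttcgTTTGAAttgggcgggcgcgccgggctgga
HMMR: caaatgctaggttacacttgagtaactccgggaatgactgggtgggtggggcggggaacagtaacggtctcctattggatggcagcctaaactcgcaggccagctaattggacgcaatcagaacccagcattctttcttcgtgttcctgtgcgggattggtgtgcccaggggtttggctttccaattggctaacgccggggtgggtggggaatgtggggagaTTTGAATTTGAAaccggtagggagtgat
An E2F match was found for 12 of 26 replication genes in the promoter table, or 46.2%, against 3.4% of all 27305 genes and 12.5% of 24 mitosis genes. A CHR match was found for 15 of the 24 mitosis genes, or 62.5%, against 17.2% of all genes and 7.69% of the replication genes. The CCAAT box, which often lies upstream of a CHR, was found on either strand for 21 of the 24 mitosis genes, or 87.5%, against 37% of all genes. It was also found for 65.4% of the replication genes, 66.7% of the androgen-induced genes and 88.9% of the cholesterol synthesis and uptake genes. For the androgen-repressed genes the share was 20%. A high share of CCAAT boxes was thus not particular to the mitosis list. These are matches of letters and not measurements of binding.

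DHT for 24 h raised replication genes more than mitosis genes in stripped serum. All 30 replication genes were higher with DHT than with vehicle, 16 at least 2-fold, with a median of 1.02, while 28 of the 30 mitosis genes were higher but 2 at least 2-fold, CDK1 (1.26) and MKI67 (1.02), with a median of 0.41. In this comparison 28.9% of all genes were higher and 3.28% at least 2-fold higher, with a median of -0.08. Against full serum all 60 genes were still called lower with DHT, where 40.4% of all genes were, and 4 replication genes and 25 mitosis genes were at least 2-fold lower (4.87% of all genes were). The 4 were CDC45 (-1.26), the primase subunit PRIM1 (-1.13), GINS1 (-1.09) and RRM2 (-1.07). After scaling to total FPKM none of the 60 was 2-fold lower with DHT, and 6 replication genes and 27 mitosis genes were then called lower than in full serum, with medians of -0.04 and -0.46, while 4 replication genes were called higher. PCNA reached 71.3, 71.0 and 76.0 FPKM and MKI67 16.4, 17.3 and 16.2 with DHT, both below every full serum library.

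Of the androgen-induced genes, 20 of the 27 lower in stripped serum were higher than in full serum once DHT was added, 2 were lower and 5 were not called. In that comparison 18.2% of all genes were called higher and 40.4% lower. Of the replication genes 29 of 30, and of the mitosis genes all 30, stood apart by experiment, against 18.4% of all genes and 0 of the 29 androgen-induced genes. The last count was likely in advance, because DHT raises androgen-induced genes inside the stripped serum experiment. MKI67 ranged from 37.6 to 57.4 FPKM over the 12 full serum libraries, V16D and enzalutamide-treated cells included, and from 7.57 to 17.3 over the 18 stripped serum libraries. Serum, hours on the plate and plating density all moved with these genes, and the part of each in the result was not tested.

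**Figure D4:**
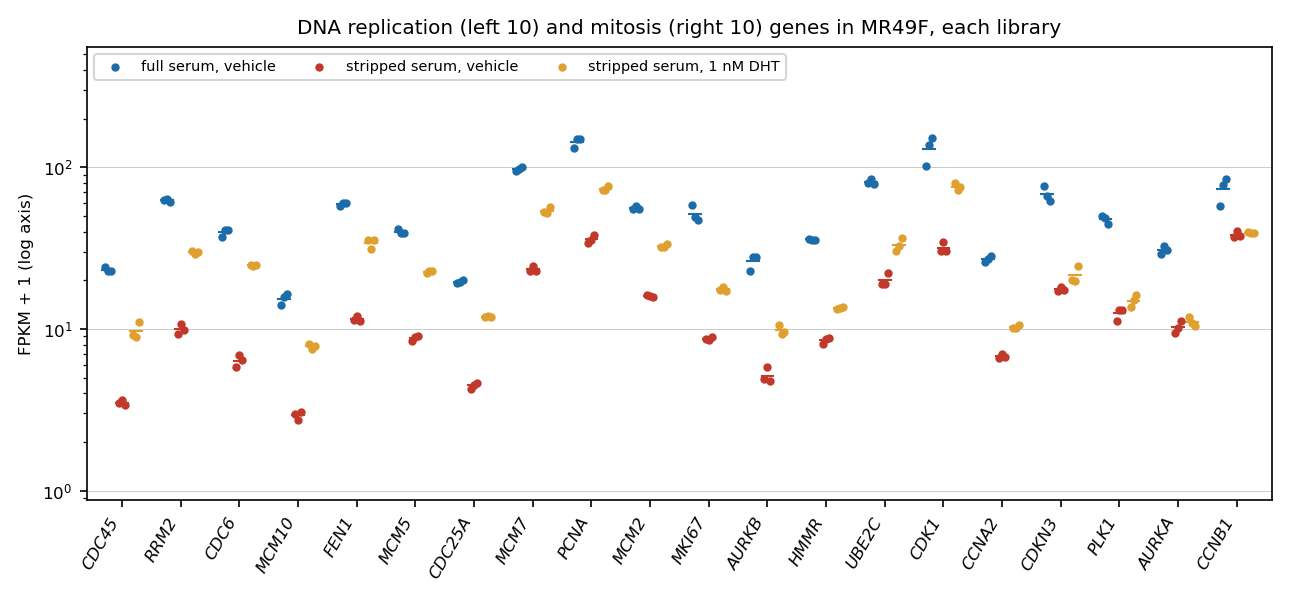
FPKM + 1 on a log axis for 10 DNA replication genes (left) and 10 mitosis genes (right); points are the 3 libraries of each group and bars the mean. DHT libraries lie between the vehicle groups for replication genes such as CDC6 (23.5 to 24.0 FPKM, between 4.78 to 5.86 and 36.1 to 40.0) and close to stripped vehicle for PLK1 and AURKA.

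Regulators of entry into the cell cycle were mixed. Of 20 genes on the list of cyclins, kinases and inhibitors of the first gap phase, 17 passed the filter, 9 were lower (52.9%, against 39.2% of all genes) and 6 higher (35.3%, against 34.1%) in stripped serum, with a median of -0.18 that turned positive after quantile normalization (0.09) and scaling to total FPKM (0.63). The kinase CDK2 went from 27.6, 31.5 and 31.7 FPKM in full serum to 9.27, 10.2 and 10.2 (difference -1.52), and the pocket protein RBL1 differed by -1.24. Higher by at least 2-fold were CCNG2, a cyclin of quiescent cells (4.84 to 4.98 FPKM against 25.3 to 26.4, difference 2.18), the inhibitor CDKN1C (1.64) and the antiproliferative gene BTG2 (1.05). With DHT, CCNG2 measured 7.22 to 7.26 FPKM. CCND1, the D-type cyclin, differed by 0.16 only. Most replication-dependent histone symbols on the list used did not follow the replication genes: 9 of 13 tested were higher (69.2%, against 34.1% of all genes) and 3 lower, with a median of 0.69 (1.46 after scaling to total FPKM). HIST2H2AA3 (1.45), HIST1H2AE (1.22), HIST2H2BE (1.18) and HIST1H2AC (1.04) were at least 2-fold higher and HIST1H1E at least 2-fold lower (-1.55). Histone symbols off the list were not counted, among them HIST1H2BE (-2.75) and HIST1H2BJ (-2.56), which were at least 2-fold lower. Most histone transcripts lack a poly(A) tail and would be poorly represented in poly(A) RNA.

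Of 10 polyamine genes 6 were lower and 3 higher in stripped serum, where 39.2% and 34.1% of all genes were, with a median of -0.45 that became 0.35 after scaling to total FPKM. Spermine synthase, SMS, went from 317, 296 and 303 FPKM in full serum to 84.7, 91.4 and 95.9 in stripped serum (difference -1.74 ± 0.06), and with DHT it reached 743, 769 and 794 FPKM. Spermidine synthase, SRM, differed by -1.33, and ODC1, the rate-limiting ornithine decarboxylase, by -0.99, from 373, 378 and 378 to 179, 189 and 200 FPKM. SAT1, which starts polyamine breakdown, differed by -0.94 and was higher than in full serum with DHT by 1.37. After scaling to total FPKM neither ODC1 (-0.18) nor SAT1 (-0.16) was called for stripped vehicle against full serum. Of the 6 lower genes 5 were higher than in full serum with DHT and 1 was lower, where 18.2% and 40.4% of all genes were. SMS, SRM, ODC1 and SAT1 were lower in each stripped vehicle library than in each full serum library.

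Endoplasmic reticulum folding and unfolded protein response genes were lower for 15 of 18 (83.3%, against 39.2% of all genes) and higher for 1, with a median of -0.63 (0.16 after scaling to total FPKM). MANF, a secreted folding factor, went from 274, 247 and 242 to 101, 112 and 111 FPKM (difference -1.23). The cochaperone DNAJB9 differed by -0.79, SDF2L1 by -0.77 (0.022 after scaling to total FPKM) and the chaperone HSPA5, also called BiP, by -0.76 (0.054 after that scaling). EDEM1, a factor for disposal of misfolded proteins, was the one higher (0.69). With DHT, 12 of the 18 were called above full serum and 1 below, where 18.2% and 40.4% of all genes were. Genes of the ATF4 amino acid response were lower for 14 of 18 (77.8%, against 39.2% of all genes) and higher for 3, with a median of -0.80 (0.01 after scaling to total FPKM). Asparagine synthetase, ASNS, went from 158, 161 and 172 to 60.2, 65.4 and 61.1 FPKM (difference -1.38), and the cystine transporter SLC7A11, the cystathionine lyase CTH and the serine hydroxymethyltransferase SHMT2 differed by -1.37, -1.27 and -1.09. With DHT all 18 ATF4 list genes still lay below full serum, from -0.86 to -0.06, and 12 of them were called (40.4% of all genes were called lower). After scaling to total FPKM, by contrast, 17 lay above full serum and 12 were called higher, where the median of all genes was 0.63.

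Of 22 glycolysis and hypoxia genes tested 14 were lower (63.6%, against 39.2% of all genes) and 3 higher, with a median of -0.34 (0.48 after scaling to total FPKM). Hexokinase 2, HK2, went from 10.6, 10.9 and 10.8 to 2.82, 2.76 and 2.88 FPKM (difference -1.63). LDHA went from 326, 325 and 336 to 106, 119 and 122 FPKM (difference -1.50), and LDHB differed by -1.18. The aldolase ALDOC was higher by 1.35. EGLN3, an oxygen-sensing hydroxylase, was higher by 1.00.

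Of 24 cholesterol synthesis and uptake genes tested 16 were lower (66.7%, against 39.2% of all genes) and 4 higher, with a median of -0.29. After scaling to total FPKM the median was 0.50 beside 0.72 for all genes, with 19 called higher and 2 lower. Among those at least 2-fold lower was EBP, a late enzyme of cholesterol synthesis (-1.55). TM7SF2, a sterol reductase, was higher by 1.71, at 42.3, 45.3 and 46.3 against 149, 150 and 147 FPKM. Of the 15 fatty acid genes 6 were lower and 6 higher, near the shares of all genes, with a median of 0.03. After scaling to total FPKM their median was 0.84, again beside 0.72 for all genes, with 10 called higher and 2 lower. The elongase ELOVL5 went from 182, 179 and 181 to 39.3, 41.7 and 39.8 FPKM (difference -2.14 ± 0.05), malic enzyme ME1 differed by -1.03, ACACA by -0.85 and fatty acid synthase, FASN, by -0.83. ACACA (-0.045) and FASN (-0.014) were not called after scaling to total FPKM. With DHT, FASN measured 488, 496 and 486 FPKM, above the 277, 321 and 295 of full serum and the 171, 168 and 162 of stripped vehicle.

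Targets of the liver X receptors, which sense oxysterols, were higher. Of 8 genes tested on that list 7 were higher (87.5%, against 34.1% of all genes) and the other, the receptor gene NR1H3, differed by -0.01 without a call (0.73 and called after scaling to total FPKM), with a median of 0.41. The list median was 1.22 after that scaling, beside 0.72 for all genes. The sterol exporter ABCG1 went from 1.87, 2.58 and 2.22 to 15.1, 15.3 and 14.2 FPKM (difference 2.30 ± 0.09), and ABCA1, its partner in cholesterol efflux, from 0.178, 0.143 and 0.0915 to 2.19, 2.18 and 1.99 FPKM (difference 1.46). MYLIP, a ubiquitin ligase, was higher by 0.72. With DHT, ABCG1 measured 2.97, 2.80 and 3.004 FPKM and ABCA1 0.202, 0.208 and 0.156 FPKM, near full serum.

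Charcoal also removes other ligands, and lists for their receptors were described with few genes passing the filter. Of 8 genes of the glucocorticoid receptor list tested 6 were lower and 2 higher, where 39.2% and 34.1% of all genes were. The list median was -0.65 (0.09 after scaling to total FPKM). The receptor gene NR3C1 itself was at or below 0.01 FPKM on the mean in both groups. TSC22D3, known as GILZ, was higher by 2.26 (11.8, 11.8 and 12.9 against 58.7, 63.4 and 63.4 FPKM), whereas ZBTB16 (-1.20), CEBPD (-1.10) and PER1 (-1.04) were lower. DHT lowered TSC22D3 to 13.9, 14 and 15.4 FPKM and raised ZBTB16 by 2.02, CEBPD by 1.46 and PER1 by 1.31 over stripped vehicle. Of 3 estrogen and progesterone genes tested, GREB1 was lower by 2.16, and TFF1 and TFF3 were higher (1.37 and 1.29). GREB1 measured 11.8, 12.2 and 12.2 FPKM in full serum, 1.83, 1.90 and 2.01 in stripped serum and 27.8, 28.5 and 26.6 with DHT, while the estrogen receptor gene ESR1 was at 0 and 0.01 FPKM on the mean.

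Of 3 vitamin D genes tested, VDR was lower by 0.60 (higher by 0.06 after scaling to total FPKM, not called) and IGFBP3 higher by 2.22 (97.0 to 101 FPKM against 446 to 501). CYP24A1, the gene that marks vitamin D receptor activity, was listed at 0 on the mean of each group. Of 3 retinoid genes tested RXRA (0.60) and RARG (0.57) were higher. Of 3 thyroid hormone genes tested THRB (-1.12) and KLF9 (-0.47, or 0.29 after scaling to total FPKM) were lower and THRA higher (0.40). Of 5 aryl hydrocarbon genes tested, NQO1 (-1.07) and CYP1A1 (-0.93) were lower and CYP1A2 higher by 0.26. Among 7 steroid enzyme genes tested 2 were lower and 2 higher (28.6% each, against 39.2% and 34.1% of all genes). None reached 2-fold. After scaling to total FPKM all 7 were called higher, with a list median of 0.67 beside 0.72 for all genes.

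Of 13 immediate early and serum response genes tested 6 were lower (46.2%, against 39.2% of all genes) and 3 higher (23.1%, against 34.1%), with a median of -0.09. After scaling to total FPKM 11 were higher and 1 lower, with a median of 0.54 beside 0.72 for all genes. DUSP4, a phosphatase that limits MAP kinase signalling, went from 30.1, 32.3 and 31.6 to 2.79, 3.07 and 2.84 FPKM (difference -3.05 ± 0.05), and reached 10.9, 11.5 and 11.6 FPKM with DHT. FOS was higher by 1.63, from 0.809, 0.550 and 0.681 FPKM to 4.17, 4.25 and 4.10, and JUN was higher by 0.86. MYC was lower by 0.82, at 130, 115 and 110 FPKM in full serum and 64.4, 67.1 and 67.9 in stripped serum, and by 0.01 without a call after scaling to total FPKM. Interferon-stimulated genes were higher for 4 and lower for 2 of 8 tested, where 34.1% and 39.2% of all genes were. None reached 2-fold, with OAS3 at -0.99 and ISG15 at 0.73.

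Markers of the luminal prostate cell were all tested, with 5 of 12 lower and 5 higher (41.7% each, against 39.2% and 34.1% of all genes) and a median of 0.03. After scaling to total FPKM 9 were higher and 3 lower, with a median of 0.84 beside 0.72 for all genes. The lower ones included SLC45A3 (-2.996) and KLK3, which androgen induces, and EPCAM (-0.42, or 0.39 after scaling to total FPKM), which stood apart by experiment. FOLH1, prostate-specific membrane antigen, was higher by 1.41, at 155, 158 and 160 FPKM in full serum, 405, 422 and 439 in stripped serum and 126, 124 and 122 with DHT. The lineage factor HOXB13 was higher by 0.95 and FOXA1 by 0.30, while GATA2 differed by 0.08 and the keratin KRT8 by -0.02 (0.79 after scaling to total FPKM), neither called as deposited. Neuroendocrine and plasticity genes were tested for 5 of 15, of which ENO2 (1.99), NCAM1 (0.88) and REST (0.30) were higher and TUBB3 lower (-0.39, or 0.37 after scaling to total FPKM). ENO2 measured 5.03, 6.80 and 6.88 FPKM in full serum, 26.4, 29.1 and 26.9 in stripped serum and 8.68, 8.70 and 8.43 with DHT. The defining markers CHGA, NEUROD1 and INSM1 were at or below 0.07 FPKM on the mean in every one of the 3 groups.

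Markers of other cells were low apart from FN1, a stromal gene, and CD68 and LYZ, leukocyte genes. The 6 basal epithelial genes summed to 1.5 to 1.8 FPKM in full serum and 4.0 to 4.3 in stripped serum, mostly ITGB4 (0.618 and 2.90 on the mean), with KRT5 and TP63 at or below 0.02. The 4 endothelial genes summed to less than 1 FPKM in each library. Stromal genes summed to 82.7 to 84.5 and 63.8 to 65.6 FPKM, nearly all of it FN1 (81.4 and 61.3 on the mean, difference -0.40, or 0.41 after scaling to total FPKM), with COL1A2 listed at 0. Leukocyte genes summed to 9.32 to 10.8 FPKM in full serum and 2.72 to 2.91 in stripped serum. Of 5 such genes, CD68 (-0.90) and LYZ (-2.16, at 3.74 to 4.66 FPKM in full serum and 0.0858 to 0.206 in stripped serum) were lower and PTPRC and CD3E were at or near 0. The 18 reference genes had a median of -0.19, with 9 lower (50.0%, against 39.2% of all genes), 2 higher (11.1%, against 34.1%) and none past 2-fold. The median was 0.08 after quantile normalization and 0.63 after scaling to total FPKM. SNRPD3 (-0.91), PSMB2 (-0.83) and HPRT1 (-0.67, or 0.12 after scaling to total FPKM) were the furthest from 0 among them, so differences below about 1 were of a size that reference genes also reached.

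**Figure D5:**
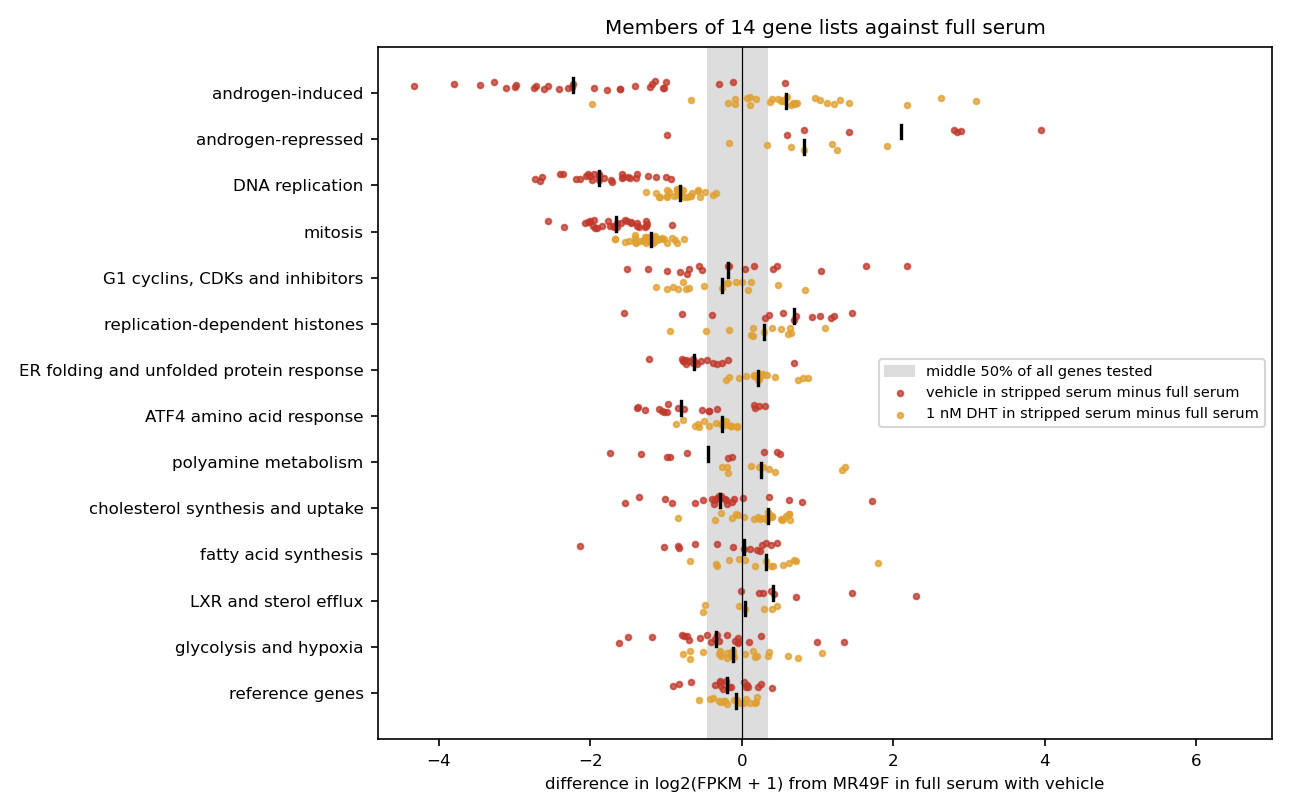
Difference in log2(FPKM + 1) from full serum for each tested member of 14 gene lists, for vehicle (red) and 1 nM DHT (yellow) in stripped serum; black bars are list medians and the grey band is the middle 50% of all genes, -0.44 to 0.34. With DHT the androgen-induced median moves from -2.23 to 0.58, the replication median from -1.88 to -0.82 and the mitosis median from -1.67 to -1.20; scaling to total FPKM moves the median of all genes up by 0.75 for vehicle and 0.74 for DHT.

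Fewer genes were called against full serum with DHT than with vehicle. Against full serum 58.6% of 12301 genes were called with DHT, 599 of them at least 2-fold lower (4.87%) and 150 higher (1.22%), compared with 1114 and 598 for vehicle, though the 2 comparisons share the full serum libraries. After scaling to total FPKM the balance turned, to 373 lower and 2027 higher with DHT and 543 and 3947 for vehicle. The count of 599 fell to 277, 267 and 268 when full serum replicate 1, 2 or 3 was left out, because genes seen only in full serum then missed the filter of 3 libraries. Of the 599 genes, 480 stood apart by experiment, or 80.1%, against 18.9% of all genes tested in either direction. Within stripped serum, DHT against vehicle called 72.1% of 12180 genes, with 469 at least 2-fold lower (3.85%) and 399 higher (3.28%).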

How the data were processed

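Poly(A) RNA of MR49F and V16D cells was sequenced as single-end 50-base reads from strand-specific libraries, 3 replicates per group. Per the labels and the study's methods, the authors aligned reads to hg19 with TopHat 2.0.9, estimated FPKM per transcript with Cufflinks 2.1.1, and counted reads per gene with HTSeq. The deposited FPKM values, 43497 transcripts per library, were summed to 23616 gene symbols. The deposited counts were used only for read totals (1221104 to 18194061 on genes per library). Reads listed by the counter, on and off genes, were 20755560 to 28975804 in full serum and 24528663 to 28767534 with vehicle in stripped serum. The totals on genes were therefore not taken as the depth behind FPKM. Values of low genes are less precise. Genes with at least 1 FPKM in at least 3 of the 6 libraries of a comparison were tested on log2(FPKM + 1) with limma 3.58.1 (trend, R 4.3.3) and Benjamini-Hochberg adjustment over all genes tested, in 3 comparisons that share groups. The test was checked on simulated data. Calls needed an adjusted p of 0.05 or less. The p-values measure the spread between wells of one line, which may be technical.

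Members and the 29 gene lists were chosen with earlier results of these data known. Named genes were 8 androgen-related genes (some of them not reported here), the 12 highest and 12 lowest protein-coding genes (no overlap between groups, at least 5 FPKM, not listed at 0 throughout a group), and up to 4 leading members per list past the threshold; a few others were added after their values were seen. GRCh37 coordinates are from GENCODE 44. SC4MOL was matched as MSMO1, and HIST2H4A is not analysed here. Alternatives were the pseudocount, filters, 4 scalings, protein-coding transcripts only, a replicate block, all 30 libraries in the fit, an equal-variance test after a variance filter, and leaving out each library.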

Additional observations from a re-analysis of the deposited data

How the results depend on the processing

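The number of genes called stayed within 1.5 times under every alternative in all 3 comparisons. For stripped against full serum, the count at least 2-fold lower was 1114 as reported, 728 with at least 1 FPKM required in every library, 543 after scaling to total FPKM and 366 without the genes that stood apart by experiment, and the count higher was 982 with a pseudocount of 0.1 and 3947 after scaling to total FPKM. For DHT in stripped serum against full serum, the count lower was 925 with a pseudocount of 0.1, 248 with at least 1 FPKM in every library, 373 after scaling to total FPKM, 351 after quantile normalization, 349 with protein-coding transcripts only and 119 without the genes that stood apart; the count higher was 241, 2027 and 289 under the pseudocount, the total scaling and quantile normalization. For DHT against vehicle the count lower was 928 with a pseudocount of 0.1 and 761 after scaling to total FPKM. The cause was not tested, except that stricter filters and fewer libraries test fewer genes. Leaving out 1 library at a time gave 753 to 1136 genes lower and 455 to 635 higher for stripped against full serum, 267 to 616 lower with DHT against full serum, and 2 to 5 androgen-repressed genes at least 2-fold higher. That last count was 2 with at least 1 FPKM in every library. Mitosis genes at least 2-fold lower numbered 13 after scaling to total FPKM. With DHT against full serum, replication genes at least 2-fold lower numbered 7 with a pseudocount of 0.1, 0 after scaling to total FPKM, 2 after median-of-ratios scaling, 2 after quantile normalization and 4 to 7 with 1 library left out, and mitosis genes 0 after scaling to total FPKM. Scaling to the sum over protein-coding transcripts and the counts without genes that stood apart were chosen after seeing the data.

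Of 1997 values of 124 named genes under the alternatives, 1956 kept their direction and side of the threshold, 31 lost the call and 10 changed sign. The sign changed after scaling to total FPKM for HSD17B10 (0.47), HSD17B4 (0.67), VDR (0.0555), KLF9 (0.29), SDF2L1 (0.0219), HSPA5 (0.0539), TUBB3 (0.37), HPRT1 (0.12) and FN1 (0.41), and after quantile normalization for HSD17B4 (0.12). Scaling to total FPKM also removed calls with the sign kept. Among genes named above, these were KLK4, PEG10, SLBP, CCNB1, ODC1, SAT1, DNAJB9, SHMT2, ACACA, FASN, SNRPD3, PSMB2, CD68 and MYC. Replicate numbers are shared by the groups but did not pair the wells, with correlations of same-numbered deviations of -0.13 to 0.01 for stripped against full serum. A replicate block gave 1120 genes lower and 598 higher. The share of reads on genes was low in stripped serum, so counts could not set the depth behind FPKM there.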
